A study of Homo sapiens with 4 samples.

Results

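Histone genes were taken from the count table by their symbols, which keep the family name followed by C and a number for genes of the histone clusters (for example H2BC12) and a variant name for the others (for example H2AZ1). The genes described here number 80 of the 61806 listed. Of these, 60 were core cluster genes, with 16 for H2A, 17 for H2B, 13 for H3 and 14 for H4. A further 6 were linker histone genes of the cluster (H1-1 to H1-6), 12 were variant genes (H1-7, H1-8, H1-10, H2AX, H2AZ1, H2AZ2, H2AJ, H3-3A, H3-3B, H3-5, MACROH2A1 and MACROH2A2), and the other 2 were H3-4 and H3-7.

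Poly(A)-selected RNA was sequenced from 2 human cancer cell lines, MDA-MB-231, a breast cancer line, and MDA-MB-435, labelled as melanoma, both with the genotype WT. Each line gave 1 control library and 1 library after 6 h with 10 µM CPYPP, a small molecule known as an inhibitor of the Rac activator DOCK2, to find which transcripts change during the vacuolating cell death called paraptosis. The text on culture and treatment mentions only MDA-MB-435, also for the other line's samples, so the dose in MDA-MB-231 rests on the same text, and what the control cultures received is not stated there. With 1 library per condition there is no spread between cultures, so folds below carry a 95% exact interval for counting error only and no p-value.

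Core histones H2A, H2B, H3 and H4 form the octamer that DNA wraps around, and linker H1 binds where the DNA enters and leaves it. The cluster genes make most histones during S phase, and most of their mRNAs end in a conserved stem-loop in place of a poly(A) tail. Variant genes are transcribed through the cell cycle, and their mRNAs are mostly spliced and polyadenylated. Some cluster genes also make polyadenylated transcripts, and H2AX makes both forms. Selection with oligo(dT) beads keeps transcripts with a poly(A) tail, so levels of cluster genes in these libraries describe what passed that selection and not all their mRNA.

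The libraries held between 17196385 and 22663954 counts, and a count of 0 allows a level of up to 3 counts, which is between 0.132 and 0.174 CPM, the counts of a gene scaled to the library total. The 7 breast epithelial markers summed to 26446 and 18275 counts in MDA-MB-231 (control, then CPYPP) and to 6479 and 4490 in MDA-MB-435, where CDH1 was at 0 in both. The 8 melanocyte lineage markers summed to 1631 and 738 against 6183 and 2778 counts, but they did not move as one. SOX10 (0, 1, 3031 and 707), S100B (0, 0, 1055 and 761) and DCT (1, 3, 658 and 464) lay almost wholly in MDA-MB-435, while MITF had 1585, 690, 1405 and 809 counts and made up nearly all of the sum in MDA-MB-231. PMEL (34, 29, 13 and 4) was higher in MDA-MB-231, and TYR was at 3 or fewer in every library. The 3 markers of other cell types summed to 241, 135, 87 and 20. Of the breast markers, KRT8, KRT19, EPCAM and CDH1 lay mostly in MDA-MB-231. KRT18 (8212, 5653, 5740 and 4077) gave most of the MDA-MB-435 sum. GATA3 (242, 88, 187 and 83) was similar in both lines, and ESR1 (2, 9, 24 and 20) was higher in MDA-MB-435. MLANA had 8, 14, 9 and 14 counts and TYRP1 had 3, 1, 10 and 16. Some markers thus follow the labelled cell types, and MITF, PMEL, TYR, MLANA, GATA3 and ESR1 do not. KRT18 was high in both lines.

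Sequence features of the transcript ends were read from GENCODE v29 transcripts on GRCh38. The stem-loop, searched as its 16-base consensus on the transcript strand and shown in capitals with up to 5 bases on each side, is given for H2AX and for cluster genes that were among the highest or differed most between the lines. Each lies in an exon of a transcript of the gene.
H2AC6: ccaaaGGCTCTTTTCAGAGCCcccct (chr6:26124664-26124689, + strand)
H2BC5: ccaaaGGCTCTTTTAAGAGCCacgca (chr6:26158582-26158607, + strand)
H2BC21: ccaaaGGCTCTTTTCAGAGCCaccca (chr1:149886183-149886208, - strand)
H3C6: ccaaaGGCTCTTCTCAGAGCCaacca (chr6:26225591-26225616, + strand)
H3C8: aaaaaGGCTCTTTTAAGAGCCgccta (chr6:26270918-26270943, - strand)
H4C8: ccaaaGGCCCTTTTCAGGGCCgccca (chr6:26285126-26285151, - strand)
H2AX: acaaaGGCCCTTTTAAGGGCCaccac (chr11:119094893-119094918, - strand)

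The other kind of end carries AATAAA, the polyadenylation signal, in capitals in the last 30 bases of a transcript. The ends of H1-10, H2AZ1 and H3-3B are from variant genes, and those of H2AC6, H2BC21, H3C6 and H4C8 belong to longer transcripts of cluster genes that also hold the stem-loop above.
H1-10: ttgggcacAATAAAgcgtttaaacctttca (chr3:129314771-129314800, - strand)
H2AZ1: ataagttcAATAAAggtcatatcccaaact (chr4:99948086-99948115, - strand)
H3-3B: ccttttgcAATAAAactggttatgacttga (chr17:75778250-75778279, - strand)
H2AC6: agcctggcatgaggtAATAAAaggtaatgc (chr6:26139073-26139102, + strand)
H2BC21: gttattAATAAAgttaccaattaatttaaa (chr1:149884459-149884488, - strand)
H3C6: agatgtaaAATAAAagattactgaacagaa (chr6:26227444-26227473, + strand)
H4C8: agaattgtgaaaaAATAAAtgtttaagcca (chr6:26277609-26277638, - strand)

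The stem-loop was found in transcripts of 26 of the 60 core cluster genes. No transcript of 30 others held it, and 4 (H3C2, H3C3, H2AC18 and H2AC19) had no entry. Many cluster models in this annotation stop near the stop codon, so the absence of the letters says only that the model lacks them. Among the 12 variants H2AX alone held the stem-loop, and of the other H3 genes H3-4 did. A gene was counted when any of its transcripts held the feature, while the shares over all genes are of single transcripts. Over all 83129 protein-coding transcripts 0.0878% held the stem-loop. AATAAA within the last 50 bases was found in 19 core cluster genes, 18 of which also held the stem-loop, and in 6 of the 12 variants. Of all protein-coding transcripts 35.5% held it, a share of transcripts and not of genes. In these models AATAAA thus does not by itself separate the classes. For H2AC11, H2BC9, H3C8, H3C14, H3C15 and H4C5 the end with AATAAA lies outside the deposited position of the gene, so their counts do not cover it.

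The table's share of histone counts lay almost wholly in the variant genes. The 60 core cluster genes together took 72.8 CPM in the control library of MDA-MB-231 (95% exact binomial interval 69.3 to 76.4), 77.3 after CPYPP, 119.3 in the control of MDA-MB-435 (114.8 to 123.8) and 98.0 after CPYPP. The 12 variant genes took 1756, 1549, 1590 and 1481 CPM. Wherever 4 values are given in a row, they run in this order: MDA-MB-231 control and CPYPP, then MDA-MB-435 control and CPYPP. The 6 linker genes of the cluster took 25.4, 22.7, 39.6 and 32.7 CPM. The variant genes were thus higher in every library on the scale of counts.

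Per length, which is the scale on which genes compare, the gap was smaller. TPM, the counts scaled by the deposited exon length and then to the library, summed to 393.2, 423.6, 673.1 and 575.0 for the core cluster genes and to 1695, 1503, 1909 and 1731 for the variants. H2BC12 alone made up more than any other cluster gene, with a TPM of 256.6, 259.7, 432.6 and 376.3. Deposited lengths of cluster genes run from coding-size models to models with long ends, so their TPM depends on which model was deposited. For several variants the deposited length exceeds the longest GENCODE v29 transcript, such as H3-3B with 6134 against 2787 bases. MACROH2A2 had 14988 against 1980, while H2AX had 1592 against 1614. A longer length lowers the TPM, so the size of the gap rests partly on the deposited lengths.

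Most core cluster genes were at or near 0. In the 2 libraries of MDA-MB-231 30 and 35 of the 60 had no count, and in those of MDA-MB-435 15 and 12 had none. At least 10 counts were reached by 10 and 10 genes in MDA-MB-231 against 17 and 15 in MDA-MB-435. The median cluster gene had 0.5, 0, 3.5 and 3 counts, against 1710, 942, 2638 and 1692 for the median variant. Over all 4 libraries 10 core cluster genes stayed at 0, as did 2 variants, H1-7 and H1-8, which encode testis and oocyte linker histones.

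The counts of the class came from few genes. The 12 highest core cluster genes held between 91.7% and 96.1% of all core cluster counts, and H2BC12 alone held 44.0%, 39.2%, 45.6% and 46.2%. Core cluster genes with a deposited exon length over 600 bases numbered 14, and their median count summed over the libraries was 200. The 46 with 600 bases or less had a median of 5.00. Of the 9 genes with at least 100 summed counts, 8 were among the longer ones and the other was H2BC12 with 495 bases. The split by length was chosen after the values were seen. These are counts that do not allow for length, and a longer model takes in more reads at the same level. The 48 core cluster genes outside the highest 12 had between 0 and 24 counts in every library.

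**Figure D1:**
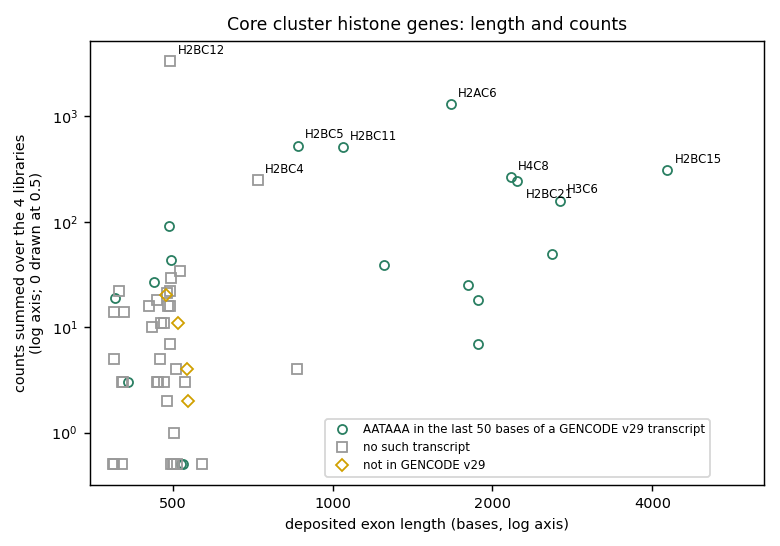
Counts summed over the 4 libraries (log axis, 0 drawn at 0.5) against deposited exon length in bases (log axis) for the 60 core cluster genes, with the symbol showing whether a GENCODE v29 transcript has AATAAA in its last 50 bases. Genes of about 500 bases sit under 100 counts except H2BC12 at 3354, and 8 of the 14 longer ones reach 100 or more.

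Levels within the variant class differed widely. H2AZ1, which encodes the H2A.Z found at promoters, had the highest TPM of all members in every library (581.4, 497.0, 544.5 and 568.6). Next among the variants came H3-3B in both libraries of MDA-MB-231 (277.5 and 255.3) and H2AX in both of MDA-MB-435 (472.4 and 363.3). At the other end, above H1-7 and H1-8 with no counts, stood MACROH2A2 and H3-5, a testis H3 gene. MACROH2A2 had a TPM of 0.5326, 1.857, 0.0927 and 0.197, from 45, 113, 8 and 14 counts and a deposited length of 14988 bases. H3-5 had a TPM of 0.7961, 0.2211, 1.559 and 1.515, from 5, 1, 10 and 8 counts and 1114 bases. Outside the variant class, H3-4, also known from testis, had 0, 0, 1 and 0 counts. The plot of levels gives each named gene in each library.

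**Figure D2:**
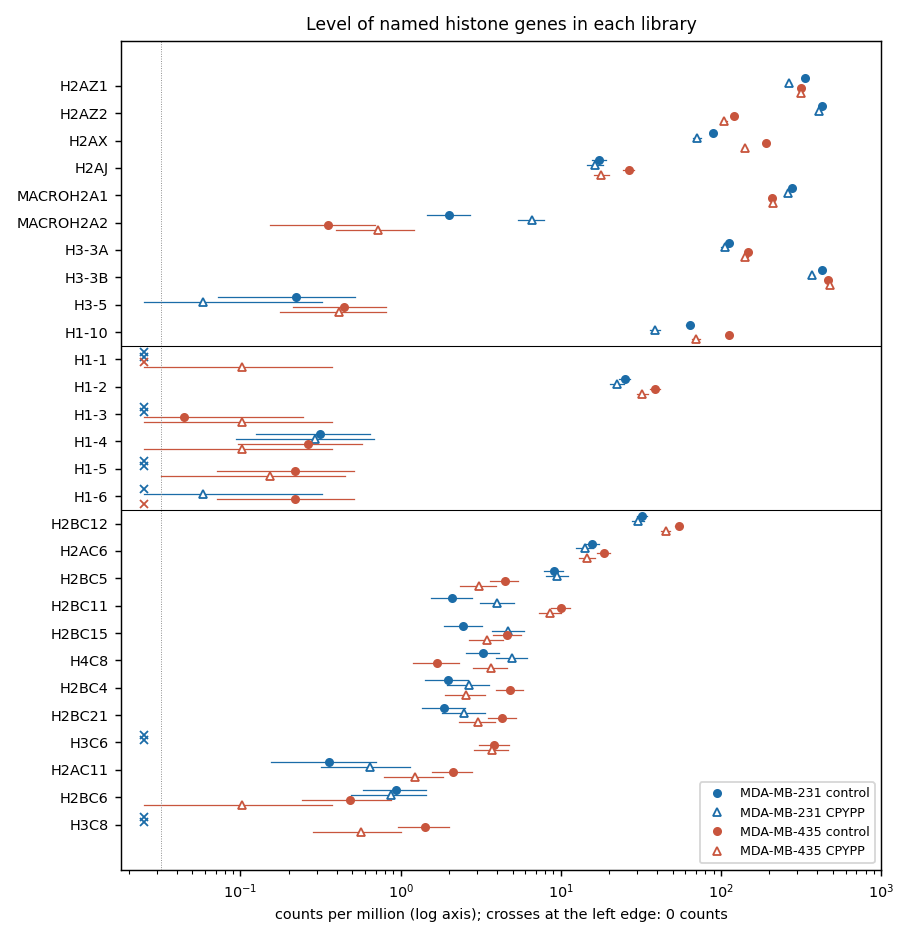
CPM (log axis) of the 10 named variant genes, the 6 linker genes of the cluster and the 12 highest core cluster genes in each library, with 95% exact counting intervals and crosses at the left edge for 0 counts. H1-10 has each CPYPP triangle left of the control of its line, and H3C6 and H3C8 are at 0 in both MDA-MB-231 libraries.

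CPYPP was followed by lower counts of the variant linker histone gene H1-10 in both lines. H1-10 (chr3:129314771-129316286), the variant H1.X, had 1427 and 666 counts in MDA-MB-231 against 2529 and 1359 in MDA-MB-435. These were 0.633-fold (0.576 to 0.694) and 0.658-fold (0.615 to 0.703) of control, a near equal ratio in both lines. Fewer cells with a transcript and less RNA per cell cannot be told apart in such bulk samples. The antisense gene H1-10-AS1, which overlaps H1-10 on the other strand, had 26, 10, 34 and 9 counts, 0.521-fold and 0.324-fold of control. The strand setting of the counting is not given, and the part of H1-10-AS1 in the result was not tested.

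The effect shared by both lines was taken from a model of all 4 libraries that includes a term for the line. The treatment is repeated in it only across the 2 lines, which leaves 1 residual degree of freedom. Of 16801 genes fitted by edgeR's quasi-likelihood test, 4.39% were higher and 2.85% lower at an adjusted p under 0.05, and 26 of the 80 members were in the fit. H1-10 fell by 0.63 on the log2 scale (SE 0.120, edgeR adjusted p = 0.0115). Without the line term it did not pass (edgeR adjusted p = 1.000), and with the other settings it did. No other member passed, and 0 were higher, although 4 of the 26 had an unadjusted edgeR p under 0.05. The same count of higher members was 0 with DESeq2 and 1 (MACROH2A2) with edgeR on total counts.

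The H2A.Z genes lay within 2-fold of control after CPYPP. H2AZ1 had 7440 and 4581 counts in MDA-MB-231 against 7116 and 6119 in MDA-MB-435. These were 0.834-fold (0.804 to 0.866) and 1.05-fold (1.02 to 1.09) of control. H2AZ2, the second gene for H2A.Z, had 9624 and 7075 against 2747 and 2025 counts. These were 0.996-fold (0.966 to 1.03) and 0.902-fold (0.851 to 0.956) of control. Of the pair, H2AZ2 was the one whose level differed most between the lines. Its TPM stood at 243.8 and 248.8 in MDA-MB-231 against 68.1 and 61.0 in MDA-MB-435.

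H2AX, the variant phosphorylated at DNA breaks, had 1993 and 1217 counts in MDA-MB-231 against 4330 and 2742 in MDA-MB-435. It was 0.828-fold (0.770 to 0.889) and 0.775-fold (0.739 to 0.813) of control. The shared effect of -0.32 on the log2 scale did not pass (edgeR adjusted p = 0.112), while over the alternatives its adjusted p ran from 0.00213 with DESeq2 to 1.000 with edgeR without the line term. H2AJ, another H2A variant, had 387, 281, 604 and 349 counts, 0.984-fold of control in MDA-MB-231 (0.841 to 1.15) against 0.707-fold in MDA-MB-435 (0.618 to 0.808).

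Of the macroH2A genes, whose proteins carry a large globular domain and mark repressed chromatin, MACROH2A1 was near its control in both lines. It had 6242, 4528, 4707 and 4126 counts, 0.983-fold and 1.07-fold of control. MACROH2A2 had 45 and 113 counts in MDA-MB-231, 3.40-fold of control (2.39 to 4.92), and 8 and 14 in MDA-MB-435, 2.14-fold (0.838 to 5.89). In MDA-MB-435 the interval spans no change, and the shared effect of 1.55 on the log2 scale (SE 0.456) did not pass (edgeR adjusted p = 0.0698, and from 0.0459 with total-count scaling to 1.000 without the line term). Its gene overlaps AIFM2 on the opposite strand, which had 942, 1335, 1058 and 1459 counts, 1.92-fold and 1.69-fold of control. The strand setting of the counting is not given in the sources used here, reads of the 2 genes cannot be told apart without it, and the part of AIFM2 in the result was not tested.

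The 2 genes for H3.3, the H3 deposited outside S phase, also lay close to their controls. H3-3A had 2505, 1814, 3347 and 2763 counts, 0.981-fold and 1.01-fold of control. H3-3B had 9595, 6358, 10641 and 9357 counts, 0.898-fold (0.870 to 0.927) and 1.08-fold (1.05 to 1.11). H3-3B overlaps UNK on the other strand, with 728, 468, 854 and 545 counts.

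Summed over the 6 variant H2A genes, counts were 0.937-fold of control in MDA-MB-231 against 0.964-fold in MDA-MB-435, and variant H3 sums were 0.915-fold and 1.06-fold. Without a repeat of each condition, no spread stands behind these ratios.

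**Figure D3:**
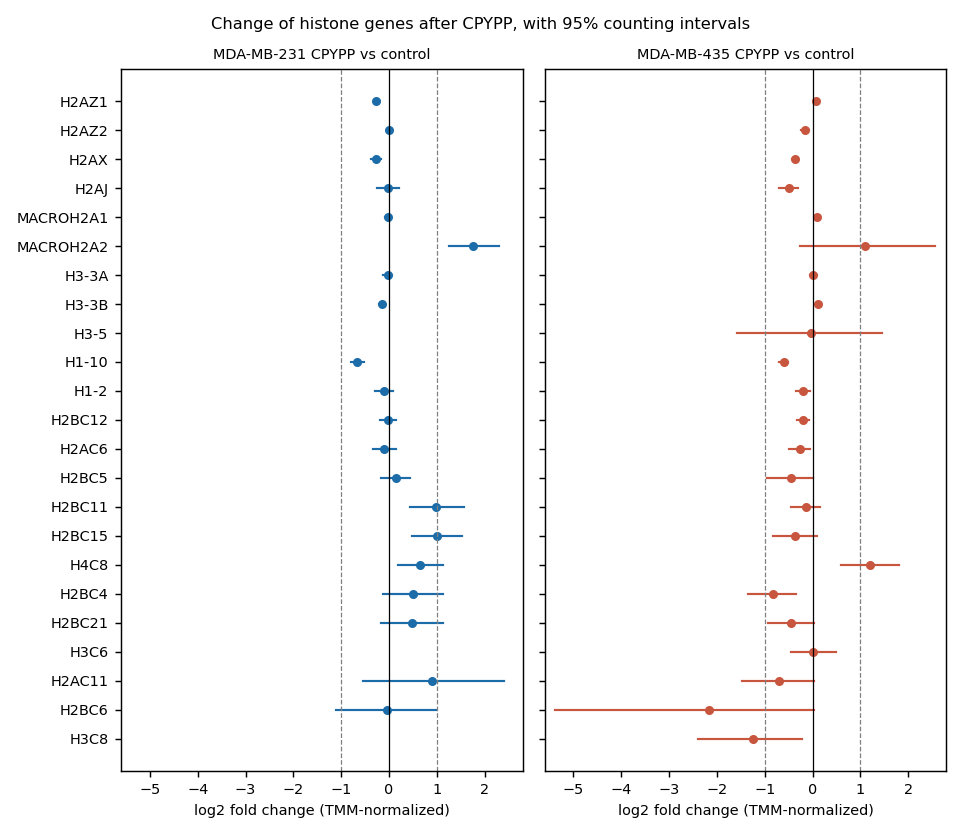
Log2 fold change of CPYPP over control (TMM-normalized counts) for named histone genes with at least 10 counts in 1 library of the line, with 95% exact counting intervals and dashed lines at 2-fold, MDA-MB-231 left and MDA-MB-435 right. H1-10 lies between 0 and the lower line in both panels, MACROH2A2 beyond the upper line in both with an interval that reaches 0 in MDA-MB-435, and H2BC11 and H2BC15 at the upper line in MDA-MB-231 only.

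Genes with at least 10 counts in 1 of the 2 libraries of a line numbered 16441 in MDA-MB-231, of which 5.32% were more than 2-fold higher after CPYPP and 5.52% more than 2-fold lower. Of the 80 members 22 reached that minimum, and 1 was higher (MACROH2A2) and 0 were lower. In MDA-MB-435 3.45% of 16527 genes were more than 2-fold higher and 10.9% lower. There 30 members reached the minimum, and 3 were higher (MACROH2A2, H4C8 and H2BC8) and 4 lower (H2BC6, H2BC18, H3C8 and H4C11). A gene that reached the minimum through 1 library only is by that more likely to lie past 2-fold. With at least 10 counts in both libraries of MDA-MB-435, 1 of 22 members was higher (H4C8) and 1 lower (H3C8), beside 2.33% and 5.25% of all genes. Of the 7 members past 2-fold in MDA-MB-435, only H4C8 had 50 or more counts in either library.

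The highest cluster genes were closer to control. H2BC12, an H2B gene, had 716, 522, 1233 and 883 counts, 0.988-fold of control in MDA-MB-231 (0.881 to 1.11) against 0.876-fold in MDA-MB-435 (0.803 to 0.956). H2AC6, an H2A gene, had 351, 242, 419 and 285 counts, 0.934-fold and 0.832-fold. H2BC5 had 202, 164, 101 and 60 counts, 1.10-fold and 0.727-fold, both with intervals that include no change.

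H4C8 was the one core cluster gene past the minimum whose CPYPP counts were above control in both lines by more than the counting error. It had 73 and 85 counts in MDA-MB-231, 1.58-fold of control (1.14 to 2.19), and 38 and 71 in MDA-MB-435, 2.29-fold (1.52 to 3.49). The shared effect of 0.91 on the log2 scale (SE 0.354) did not pass (edgeR adjusted p = 0.168). Summed H4 counts, of which H4C8 gave more than any other H4 gene, were 91, 92, 80 and 112, which gave 1.37-fold (1.01 to 1.85) and 1.71-fold (1.27 to 2.31).

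H2BC11 and H2BC15, further H2B genes, stood above control in MDA-MB-231 but not in MDA-MB-435. H2BC11 had 47 and 69 counts in MDA-MB-231, 1.99-fold (1.35 to 2.95), and 226 and 167 in MDA-MB-435, 0.904-fold (0.736 to 1.11). H2BC15 had 55 and 81 counts, 2.0-fold (1.40 to 2.86), and 105 and 67, 0.781-fold (0.566 to 1.07). The difference between the lines was not tested, as each line has 1 library per condition. H2BC15 has the longest deposited model of the core cluster genes, 4265 bases.

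H2BC4 and H2BC21 had intervals that included no change in MDA-MB-231. H2BC4 had 44, 46, 109 and 50 counts and was 0.561-fold of control in MDA-MB-435 (0.393 to 0.792), while H2BC21 had 42, 43, 98 and 59 counts and was 0.737-fold (0.524 to 1.03). H2AC11 had 8, 11, 48 and 24 counts and H2BC6 21, 15, 11 and 2, both with intervals that span no change in both lines.

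Over the core cluster genes past the minimum of counts, which are a part of the class only, the median log2 fold was 0.47 in MDA-MB-231 (11 genes, 7 above 0) against -0.36 in MDA-MB-435 (19 genes, 4 above 0). The medians of all genes were -0.02 and -0.09. The summed counts of all 60 genes, 1627, 1330, 2703 and 1910, gave 1.11-fold (1.03 to 1.19) and 0.865-fold (0.815 to 0.917) of control. Scaled by total counts, an alternative added after seeing the data, they were 1.06-fold (0.988 to 1.14) and 0.822-fold (0.775 to 0.872), so that a rise past counting error in MDA-MB-231 rests on the scaling. With no filter the median in MDA-MB-435 was 0.10. The difference between cultures is unknown. The median of the variants was -0.03 over 9 genes and -0.0080 over 10.

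Among the 6 linker genes of the cluster, H1-2 was the only one with more than 10 counts in any library. It had 561, 384, 880 and 629 counts, 0.928-fold of control in MDA-MB-231 (0.813 to 1.06) against 0.875-fold in MDA-MB-435 (0.788 to 0.970). H1-4 had 7, 5, 6 and 2 counts. H1-1, H1-3, H1-5 and H1-6 had between 0 and 5 counts in every library, and all of their counts but 1 lay in MDA-MB-435. The intervals of H1-2 thus lie above the ratios of H1-10 in both lines, and for the other linker genes a difference was not detectable at this depth.

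The 2 lines differed in which cluster genes were detected. Counts in both libraries were present for 44 core cluster genes in MDA-MB-435 and for 25 in MDA-MB-231, and 22 had a count in both libraries of both lines. A further 20 core cluster genes were at 0 in both libraries of MDA-MB-231 but not of MDA-MB-435, against 1 for the reverse. Over all genes with a count the same numbers were 4367 and 4533, so the imbalance seen in the histone clusters is not present over the whole table. Of the 20 core cluster genes, only 4 had at least 10 counts in both MDA-MB-435 libraries. Others were near 0 in MDA-MB-435 too, such as H2AC19 with 1 and 1 counts and H4C4 with 2 and 1. For such genes a difference between the lines was not detectable at this depth.

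Of the 4 core families, H3 showed the widest gap. H3C6 had 87 and 72 counts in MDA-MB-435 and 0 in both MDA-MB-231 libraries, which makes it at least 27.4-fold higher in controls and at least 20.5-fold higher after CPYPP, set against 3 counts in the MDA-MB-231 library. The exact lower limits of these ratios for counting error were 21.8 and 16.2. H3C8 had 32 and 11 counts against 0 and 0, at least 10.1-fold and 3.13-fold higher, with exact lower limits of 7.74 and 2.14. All 13 core cluster H3 genes together had 12, 16, 153 and 110 counts, 12.1-fold higher in MDA-MB-435 in controls (6.71 to 23.8) and 5.87-fold after CPYPP (3.46 to 10.6). H3C6 ends in AATAAA in its longer model, as printed above, and its deposited length is 2679 bases. H3C6 and H3C8 lie in the stretch of chromosome 6 from H4C4 to H2BC10 (chr6:26188710-26273412). Every member there was at 0 in both MDA-MB-231 libraries, and H3C4, H2AC7, H4C6 and H4C7 were so in MDA-MB-435 too. Of the members on either side, H2BC6 had 21 and 15 counts in MDA-MB-231 and H4C8 had 73 and 85. The H3 sums include the genes of this stretch, and the cause of the gap was not tested.

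H2AC8, H2BC9, H2BC8 and H4C11, singled out after their values were seen, were likewise at 0 in MDA-MB-231 and had between 3 and 24 counts in MDA-MB-435. H2AC8, H2BC9 and H2BC8 lie in the stretch from H4C4 to H2BC10 named above, and H4C11 does not. H2BC11 was 4.55-fold (3.31 to 6.37) and 2.07-fold (1.55 to 2.78) higher in MDA-MB-435, in controls and after CPYPP. H2AC11 was 5.67-fold higher in controls (2.66 to 13.9) and 1.86-fold after CPYPP, where the interval (0.879 to 4.21) spans no difference.

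The reverse also occurred. H2BC5 was 2.12-fold (1.66 to 2.71) and 3.20-fold (2.37 to 4.38) higher in MDA-MB-231. H2AZ2 was 3.71-fold (3.55 to 3.87) and 4.09-fold (3.89 to 4.30) higher there, and MACROH2A2 5.95-fold (2.78 to 14.6) and 9.45-fold (5.41 to 17.8). H3-7 had 25 and 24 counts in MDA-MB-231 but none in MDA-MB-435, at least 8.81-fold and 9.37-fold higher, with exact lower limits of 6.65 and 7.05.

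Both linker genes with more than 10 counts in a library were higher in MDA-MB-435. H1-10 was 1.68-fold higher in controls and 1.74-fold after CPYPP, and H1-2 1.48-fold and 1.40-fold, with no interval including 1. H2AX was 2.05-fold (1.95 to 2.17) higher in controls and 1.92-fold (1.80 to 2.06) after CPYPP.

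Of the members 30 had at least 10 counts in 1 of the 2 control libraries, of which 11 were more than 2-fold higher and 7 more than 2-fold lower in MDA-MB-435, where all genes gave 23.8% and 21.5% of 18269. In the CPYPP libraries 7 of 27 were higher and 5 lower, beside 19.8% and 23.4% of 17054 genes. The core cluster genes made up 10 of the 11 and all 7 that were higher, and 4 of the 7 and 2 of the 5 that were lower. Many of these reached the minimum only through the line where they are high. With at least 10 counts in both libraries, a filter added after seeing the data, 4 of 18 members were higher and 4 lower in controls, beside 16.3% and 14.4% of all genes. After CPYPP 1 of 19 was then higher (H2BC11) and 3 lower (H2AZ2, H2BC5 and MACROH2A2), beside 13.9% and 15.1%. Controls and CPYPP libraries are different samples of the same lines, and neither comparison has a repeat.

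**Figure D4:**
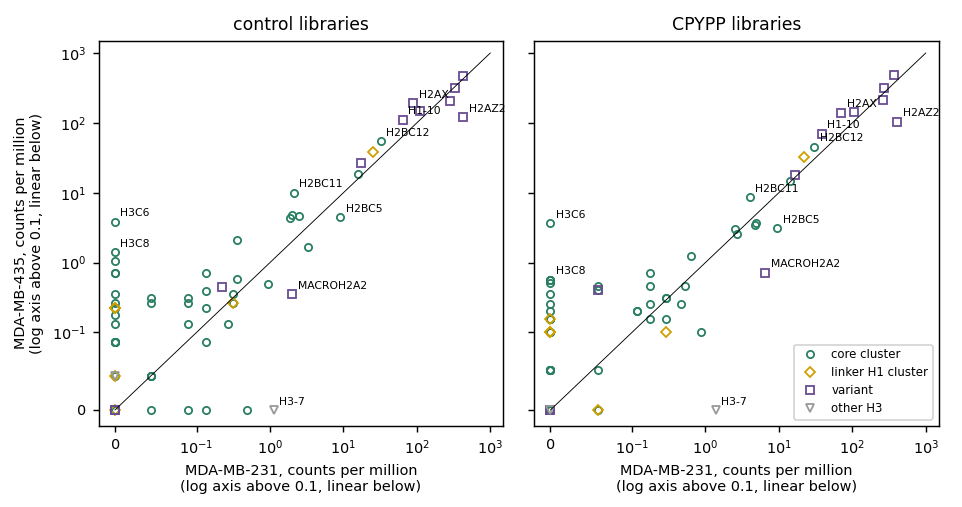
CPM in MDA-MB-435 against MDA-MB-231 (log axes above 0.1, linear below) for the 80 histone genes, in control libraries (left) and CPYPP libraries (right), with the symbol for the class and a line of equal level. H2AZ2 and MACROH2A2 lie below the line in both panels, and core cluster genes line up at 0 for MDA-MB-231, with H3C6 highest at 87 and 72 counts in MDA-MB-435.

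Many H2A and H2B cluster genes are paired head to head around a shared promoter, and 11 such pairs lay within the table, with 169 to 250 bases between the genes. In several pairs the partners' counts, which do not allow for length, lay far apart. H2AC12 had 0, 0, 6 and 4 counts beside H2BC12 with 716, 522, 1233 and 883, across a gap of 250 bases. H2AC15 had 3, 3, 9 and 14 beside H2BC15 with 55, 81, 105 and 67, but their deposited lengths are 496 and 4265 bases. Per length they were closer, with a TPM of 1.07, 1.49, 3.15 and 5.95 against 2.29, 4.68, 4.28 and 3.31. On that scale H2AC15 was the higher in the MDA-MB-435 CPYPP library. The order ran the other way for H2AC6 and H2BC4, with 351, 242, 419 and 285 counts beside 44, 46, 109 and 50. Their TPM lay closer, at 37.3, 35.7, 43.6 and 36.0 against 10.8, 15.7, 26.2 and 14.6. H2AC11 and H2BC11 were both above their MDA-MB-231 levels in MDA-MB-435 controls, and in the pair of H2AC1 and H2BC1 no count was found.

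The promoter of H2BC12 that it shares with H2AC12, from 250 bases before to 50 after the RefSeq start on GRCh38.p14 (chr6:27146809-27147108, - strand), is shown because the counts of its sides differ most. Capitals mark the searched motifs on either strand: the octamer ATTTGCAT, TATAAA and CCAAT.
H2BC12: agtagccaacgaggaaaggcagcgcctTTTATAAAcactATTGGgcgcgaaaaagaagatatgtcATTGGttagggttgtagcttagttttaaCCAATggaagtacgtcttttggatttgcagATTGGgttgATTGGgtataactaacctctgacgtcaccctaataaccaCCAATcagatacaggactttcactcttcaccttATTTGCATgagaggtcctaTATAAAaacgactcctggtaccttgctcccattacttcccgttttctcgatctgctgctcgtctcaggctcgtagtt

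RefSeq promoters of the same length were matched to 74 of the 80 members. The octamer was present for 14 of 17 core cluster H2B genes and 11 of 15 H2A genes, beside 2.19% of 27305 genes with a promoter entry, and for none of 12 H4 genes. TATAAA was present in 48 of the 74 members, beside 14.0% of all genes. CCAAT was in all 17 H2B genes and all 15 H2A genes, beside 39.7% of all genes. It was also in all 11 core cluster H3 genes, all 6 linker genes of the cluster and 9 of 11 variants, but in only 3 of 12 H4 genes. Another motif, the H1 box AAACACA, was in all 6 linker genes of the cluster and in 6.94% of all genes. H2AC1 and H2BC1, at 0 in every library, hold the octamer, TATAAA and CCAAT as H2BC12 does. These are matches of letters in a window and not sites of binding.

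Factors that act on histone mRNA were given by a list of 18 genes, all measured. ZNF473, which joins the U7 machinery that cuts histone pre-mRNA at the stem-loop, had 687, 1107, 636 and 1294 counts and was 2.18-fold and 2.49-fold of control. It rose by 1.22 on the log2 scale (SE 0.137, edgeR adjusted p = 0.000722). TUT7, an enzyme that adds uridines to mRNA during its decay, had 836, 1252, 1136 and 1171 counts, 2.03-fold and 1.26-fold of control, and rose by 0.68 (SE 0.167, edgeR adjusted p = 0.0369). These were the 2 of 18 that rose, and none of the 18 fell, beside 4.39% higher and 2.85% lower of all genes fitted.

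SLBP, the protein that binds the stem-loop, had 2934, 2253, 1881 and 2553 counts, 1.04-fold and 1.66-fold of control (edgeR adjusted p = 0.162). NPAT, the coactivator of cluster histone transcription, had 1451, 1072, 1585 and 1550 counts, 1.00-fold and 1.2-fold. The median log2 fold of the list was 0.0041 in MDA-MB-231 against 0.0280 in MDA-MB-435.

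Of 20 histone chaperones 1 rose for the shared effect and none fell, a share near the 4.39% of all genes that were higher. It was ASF1A, which hands H3 and H4 to the assembly factors, with 873, 1151, 444 and 1277 counts, 1.79-fold and 3.52-fold of control (log2 1.32, SE 0.206, edgeR adjusted p = 0.00427). Its paralog ASF1B, made in dividing cells, had 2050, 1213, 1917 and 1219 counts, 0.802-fold and 0.778-fold (edgeR adjusted p = 0.113). Of 24 DNA replication genes none was more than 2-fold changed in either line, and for the shared effect 2 fell and none rose, beside 2.85% of all genes that were lower. They were GINS1, a subunit of the replicative helicase, by 0.64 (edgeR adjusted p = 0.0169), and CCNE1, the cyclin of S phase entry, also by 0.64 (edgeR adjusted p = 0.0366).

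Some values carry a limit of the counting. H4C14 and H4C15, H3C14 and H3C15, and H2AC18 and H2AC19 are near-identical copies, and their counts of at most 9 in any library may be split between them. Of the 80 members 17 overlap another listed gene, 13 of them on the other strand. A further 86 listed histone pseudogenes may share reads with members.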

How the data were processed

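The authors deposited raw read counts per gene, with gene positions and exon lengths, in 1 table of 4 libraries. The submitters' processing notes list cutadapt 1.9.1, HISAT2 2.2.1, HTSeq 0.6.1, DESeq2 and the build GRCh37.p13, but 58196 of 58254 shared gene IDs, and 76 of 76 members, overlap their GENCODE v29 (GRCh38) positions, so positions were read as GRCh38. The strand setting of the counting is not given in the sources used here.

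Counts were scaled by TMM in edgeR 4.0.16 (R 4.3.3; factors between 0.961 and 1.05 over all 4 libraries). Each ratio of 2 libraries carries a 95% Clopper-Pearson interval that covers counting error only, since PCR reads are not independent molecules. A gene counted as changed when it had at least 10 counts in 1 library and a fold over 2. Counts of 3 or fewer were set to 3 for medians of log2 folds, and folds against 0 are lower bounds against 3 counts in the library. The shared effect was fitted by edgeR's quasi-likelihood test after filterByExpr, with the line as a term and Benjamini-Hochberg adjustment over 16801 genes, and the fit was tested on simulated counts. DESeq2 1.42.0, other scalings and other filters were alternatives. TPM used the deposited exon lengths. With between 17196385 and 22663954 counts per library, genes near 10 counts have intervals spanning several-fold. Python 3.11.15, pandas 2.3.3, scipy 1.17.1 and matplotlib 3.10.9 were used for the rest.

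Named genes were all variants and the linker genes H1-1 to H1-6, the 12 core cluster genes with the highest mean CPM, members past 2-fold the same way in both lines, and the extreme folds among members with at least 50 counts. Of the pathway lists, SLBP, NPAT, ASF1A, ASF1B and any gene past 2-fold in both lines were named, and TUT7, GINS1 and CCNE1, like the other members named with few counts, were named after their values were seen. The naming rule of the histone genes found 81, of which 1 is not reported here. Members and lists were chosen with earlier results of these data known.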

Additional observations from a re-analysis of the deposited data

Results flagged for a closer look

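The variant genes H2AZ1 and H3-3B lay on opposite sides of control in the 2 lines after CPYPP, with counting intervals that do not include 1. H2AZ1 was 0.834-fold of control in MDA-MB-231 against 1.05-fold in MDA-MB-435. H3-3B was 0.898-fold in MDA-MB-231 against 1.08-fold in MDA-MB-435. The difference between the lines was not tested, because each line has 1 library per condition, and under total-count scaling the log2 fold of H2AZ1 in MDA-MB-435 was -0.0001, so its direction there rests on the scaling.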

How the results depend on the processing

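The shared effect pairs CPYPP with control within each line through the line term, and no replicate block was possible beside it, because each group has 1 library. Leaving out a library was not possible within a line. Every other scaling, filter and threshold was tried 1 at a time, and of 307 values of named genes under an alternative, 294 moved by less than the counting interval and 13 by more, and no value past 2-fold changed sign. H2AZ1, H3-3A and H3C6 in MDA-MB-435, close to control, went from above it to -0.0001, -0.06 and -0.06 on the log2 scale by total counts, and the last 2 also by upper quartile. In MDA-MB-231, members more than 2-fold higher numbered 3 with no filter and 5 at 1.5-fold, and members lower 2 at 1.5-fold, against 0 at 2-fold. In MDA-MB-435, higher members numbered 7 with no filter, 1 with at least 10 counts in both libraries or at least 50 in 1, and 0 where the interval had to exclude 2-fold. Lower members numbered 1, 0 and 0 under the last 3 of these settings and 8 at 1.5-fold. The core cluster median log2 fold in MDA-MB-231 was 0.15 as a ratio of sums and 0.31 with linker genes added. In MDA-MB-435 it was 0.10 with no filter, where most genes are at the floor, -0.26 with at least 50 counts and -0.21 as a ratio of sums. Between the lines, at least 10 counts in both libraries, added after seeing the data, left 4 members higher and 4 lower in MDA-MB-435 controls, and 1 higher and 3 lower after CPYPP. Leaving out H2BC12, chosen after seeing the data, gave log2 ratios of sums of 0.27 and -0.23. The variant median in MDA-MB-231 was -0.087 by total counts, -0.071 by upper quartile, -0.091 with no filter and -0.12 as a ratio of sums. In MDA-MB-435 it was -0.082 by total counts, 0.017 by DESeq2 size factors, -0.035 by upper quartile, -0.067 with at least 10 counts in both libraries or 50 in 1 and 0.015 without H2AX, so its side of 0 rests on the setting. Core cluster shares with linker genes added were 98.2, 100.0, 158.8 and 130.7 CPM, and per length the sums were 393.2, 423.6, 673.1 and 575.0 TPM. Variants per length summed to 1695, 1503, 1909 and 1731 TPM. For the shared effect, total-count scaling gave 1 higher member (MACROH2A2, edgeR adjusted p = 0.0459), total-count scaling and DESeq2 each gave 2 lower members (H1-10 and H2AX), and without the line term 0 members were lower, with an edgeR adjusted p of 1.000 for H1-10. The causes of these shifts were not tested.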
